A study of Mus musculus with 8 samples.

Results

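The genes described here are 38 mouse genes of fatty acid oxidation and of the PPAR pathway, named in a fixed list of symbols and found among the 55416 genes of the deposited tables. All 38 passed the filter on low counts and were among the 14063 genes tested. The list holds 2 regulators, 6 genes of acyl-CoA synthesis, 5 of the carnitine shuttle, 10 of mitochondrial beta-oxidation, 3 of electron transfer, 8 of peroxisomal oxidation and 4 other PPAR targets. RNA was sequenced from small intestinal organoids, which are cultures grown from the intestinal epithelium, in 4 groups of 2 libraries: untreated control organoids at day 4 and day 7, and organoids given 6 Gy of X-rays at day 4 and day 7. All groups came from C57BL/6 mice aged 4 to 8 weeks that carried Col1A1-TetO-OSKM Tg/Tg, a switchable set of reprogramming factors, and Rosa26-rtTA Tg/Tg, its switch. The labels do not say whether the factors were switched on, from which event the days were counted, or whether the libraries of a group came from separate cultures or animals, so p-values measure only the spread between these libraries, which may be technical.

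Cells burn long-chain fatty acids by first joining them to coenzyme A, then carrying them across the mitochondrial membranes on carnitine, and then cutting them in rounds of beta-oxidation whose electrons pass to the respiratory chain. Peroxisomes shorten very long and branched chains with their own enzymes. PPARα is a nuclear receptor that fatty acids switch on, binds DNA beside its partner RXR and turns on many of these genes, and PGC-1α is its coactivator. In the small intestine the pathway is known best in absorptive enterocytes, which take up dietary fat, and in the stem cells of the crypt.

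Expected counts per library summed to between 7541764 and 16054269, and levels are given as CPM, counts over the size of the library, scaled between libraries. Epithelial markers (6 genes) summed to 3759 to 6766 CPM, while 6 immune markers summed to 3.88 to 10.1, 6 mesenchymal markers to 0.306 to 1.36, 4 endothelial markers to 0.460 to 4.79 and 4 adipocyte markers to 0 to 0.430 CPM. Of the 4 endothelial and the 4 adipocyte markers, 2 each were at 0 in every library. Replicate 2 of the irradiated day 4 libraries stood apart, with 27.6% of its counts from mitochondrial transcripts against 12.9% to 20.7% in the other 7 libraries. Exons of Crat, Crot, Acsl1, Acsl5, Hadha, Etfdh, Acaa1a, Acaa1b, Acadvl, Eci2 and Slc27a2 overlap a gene on the opposite strand, so part of their counts is uncertain where strand was not used in counting. Those of Acsl3, Crot and Etfb overlap a gene on the same strand, where strand cannot tell the reads apart. In the irradiated day 4 libraries the biological coefficient of variation between replicates was 0.173, against 0.0409 in irradiated day 7, 0.0470 in control day 7 and 0.136 in control day 4 libraries.

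The binding site of PPARα with RXR is a direct repeat of AGGTCA with 1 base between (DR1), searched on both strands as AGGTCANAGGTCA in promoter windows of 250 bases before to 50 after each start site (RefSeq, GRCm38.p6). Windows were matched for 33 of the 38 genes, 34 windows in all. Crat, Acaa2, Hsd17b4, Decr1 and Angptl4 had none. The windows of 3 genes came within 2 mismatches of the repeat and are shown because they are the nearest to it in the list, with the match in capitals.
Etfa, electron transfer, chr9:55512194-55512493, minus strand: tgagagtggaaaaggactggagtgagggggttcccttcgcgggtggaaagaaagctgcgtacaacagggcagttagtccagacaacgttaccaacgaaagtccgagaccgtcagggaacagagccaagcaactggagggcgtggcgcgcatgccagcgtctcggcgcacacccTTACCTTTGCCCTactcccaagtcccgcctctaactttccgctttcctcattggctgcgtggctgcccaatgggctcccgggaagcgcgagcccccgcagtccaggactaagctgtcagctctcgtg
Plin2, lipid droplet coat, chr4:86670010-86670309, minus strand: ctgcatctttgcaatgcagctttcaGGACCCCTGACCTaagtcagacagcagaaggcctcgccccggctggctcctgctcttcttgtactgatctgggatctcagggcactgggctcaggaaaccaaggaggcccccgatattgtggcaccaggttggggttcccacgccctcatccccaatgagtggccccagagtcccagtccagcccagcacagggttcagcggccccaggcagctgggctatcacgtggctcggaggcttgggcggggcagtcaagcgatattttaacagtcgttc
Slc25a20, carnitine carrier, chr9:108661886-108662185, plus strand: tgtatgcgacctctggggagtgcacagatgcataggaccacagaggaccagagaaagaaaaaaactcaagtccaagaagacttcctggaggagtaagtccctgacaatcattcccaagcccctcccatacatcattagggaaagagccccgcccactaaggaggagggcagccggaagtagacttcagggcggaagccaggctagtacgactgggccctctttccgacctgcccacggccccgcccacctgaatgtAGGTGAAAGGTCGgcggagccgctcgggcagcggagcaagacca
The middle of the match lay 71 bases before the start of Etfa, 219 before the start of Plin2 and 12 after the start of Slc25a20, on the opposite strand in Etfa and Plin2. Windows within 2 mismatches made up 3 of 34 in the list, 8.82%, and 1268 of 32851 among all windows, 3.86%. No window of the list was within 1 mismatch, where 0.554% of all windows were. Such a match describes letters and does not show binding. At day 4, irradiated organoids had more Plin2 RNA, less Etfa RNA and no called change of Slc25a20.

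At day 4, irradiation went with higher levels of 20 of the 38 genes and lower levels of 5 (edgeR quasi-likelihood test, Benjamini-Hochberg adjusted p under 0.05 over all genes tested). Over all genes tested, 20% were called higher and 16.5% lower, so the share of the list that rose, 52.6%, lay above the background, and the share that fell, 13.2%, lay near it. The median log2 fold change was 0.43 over the list and 0.00 over all genes. The 38 genes summed to 3067 and 3290 CPM in control and to 4100 and 5350 CPM in irradiated libraries. Within these sums, Acsl5 alone went from 398 and 426 to 859 and 1411 CPM. By TPM, which scales counts to gene length, the list summed to 2483 and 2929 in control and 3117 and 3219 in irradiated libraries. At day 7 the TPM sums were 2607 and 2583 against 3159 and 3177, so the irradiated sums were no higher at day 4 than at day 7. TPM values were not scaled between libraries, unlike CPM. On the log2(TPM + 1) scale the median over all genes moved by 0.30 from irradiated day 4 to irradiated day 7. From control to irradiated at day 4 it moved by -0.17. TPM sums of different groups are read against these shifts. Without irradiated day 4 replicate 2, 18 genes were higher and 6 lower, against 18% and 14.2% of all genes. With all libraries, the rise took in both regulators, 4 of 5 carnitine shuttle genes and 4 of 8 peroxisomal genes. Acyl-CoA synthesis split into 2 genes that rose and 3 that fell. Both regulators lost their calls on the log2(TPM + 1) scale and in a fit of the day 4 groups alone. In bulk RNA, more cells of a type that makes an RNA and more RNA per cell cannot be told apart.

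**Figure D1:**
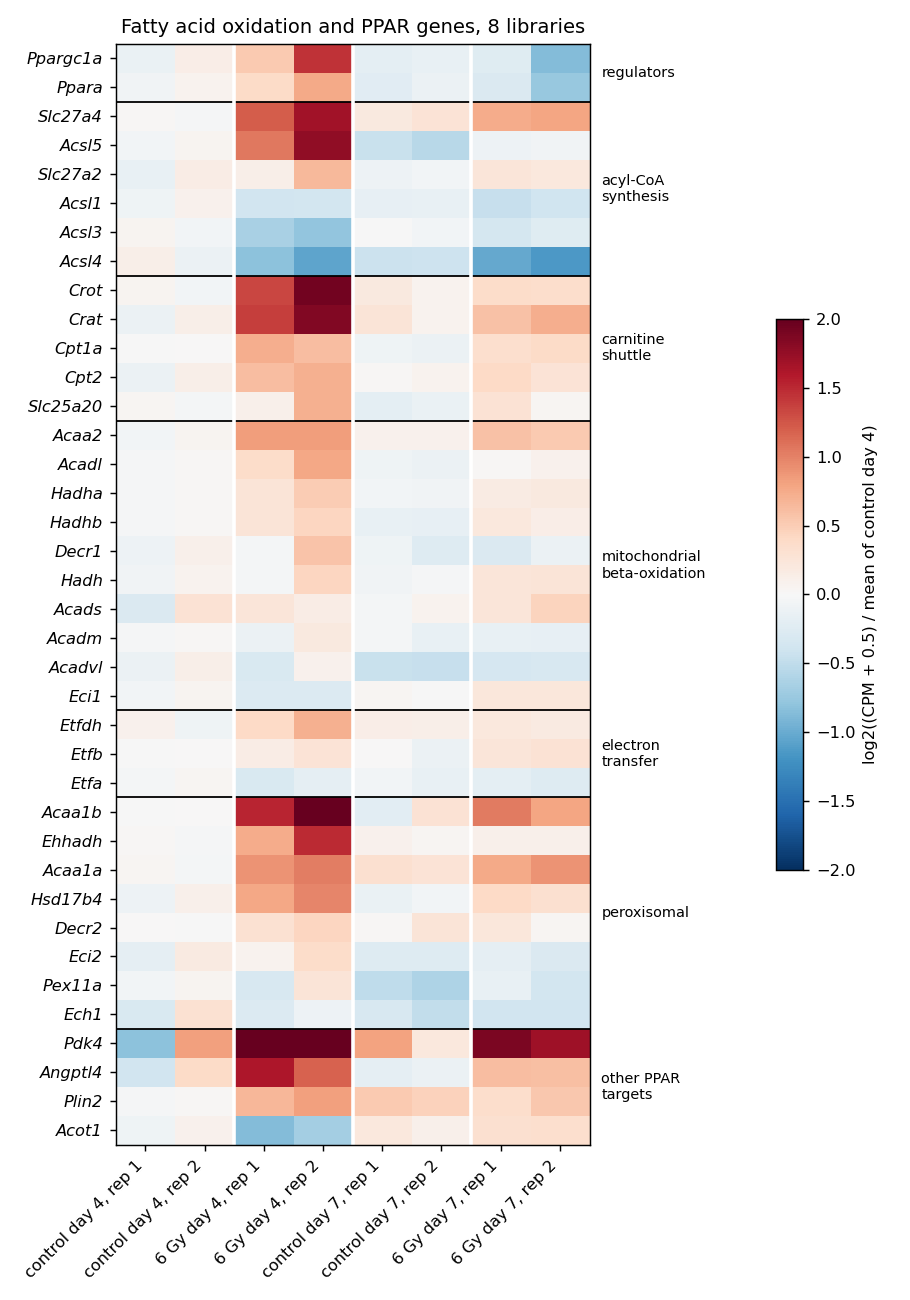
Level of each gene (lines, grouped by role) in each of the 8 libraries (columns) as log2 of CPM plus 0.5 over the mean of the control day 4 libraries. Colours end at -2 and 2. The irradiated day 4 libraries are red in most lines, replicate 2 often more so, while Acsl1, Acsl3, Acsl4 and Acot1 are blue there.

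The 2 regulators rose at day 4, both with a wide spread. Ppargc1a (ENSMUSG00000029167), which encodes PGC-1α, was at 14.2 and 17.4 CPM in control and 22.8 and 43.8 CPM in irradiated libraries at day 4, and at 13.7 and 14.1 against 13.2 and 8.42 CPM at day 7. The irradiated day 4 libraries were thus both above the controls, and replicate 2 was well above replicate 1. The log2 fold change was 1.07 ± 0.31 (SE) at day 4 (adjusted p = 0.034) and -0.35 ± 0.35 at day 7 (adjusted p = 0.586). Ppara (ENSMUSG00000022383), the receptor itself, stood at 9.29 and 10.2 CPM in control and 12.9 and 16.8 CPM in irradiated libraries at day 4, and at 8.27 and 8.92 against 7.86 and 5.53 CPM at day 7. By CPM the irradiated libraries of Ppara lay above the controls at day 4 and below them at day 7, where the difference was not called. By TPM its day 4 groups overlapped, at 3.86 and 5.07 in control and 5 and 5.53 in irradiated libraries. The log2 fold change of Ppara was 0.60 ± 0.20 at day 4 (adjusted p = 0.0384) and -0.35 ± 0.22 at day 7 (adjusted p = 0.359). Without irradiated day 4 replicate 2, neither gene was called at day 4: Ppargc1a then had a log2 fold change of 0.52 (adjusted p = 0.101) and Ppara one of 0.40 (adjusted p = 0.216). Leaving out either control library of day 4 or of day 7 also ended both calls, with adjusted p from 0.0609 to 0.156 for Ppargc1a and from 0.0653 to 0.12 for Ppara. On the log2(TPM + 1) scale neither was called (adjusted p = 0.119 for Ppargc1a and 0.533 for Ppara), nor was Ppara by DESeq2 (adjusted p = 0.144). A fit of the day 4 groups alone lost both calls as well.

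Genes of acyl-CoA synthesis moved in both directions at day 4. Acsl5, a long-chain acyl-CoA synthetase abundant in the small intestine, was at 398 and 426 CPM in control and 859 and 1411 CPM in irradiated libraries at day 4, and at 303 and 281 against 385 and 391 CPM at day 7. Both irradiated day 4 libraries were above every other library. The rise was 2.75-fold at day 4 (log2 1.46 ± 0.21, adjusted p = 0.00164), and at day 7 the log2 fold change was 0.41 ± 0.20 (adjusted p = 0.261). Slc27a4, a fatty acid transport protein with acyl-CoA synthetase activity, was at 34.3 and 33.0 CPM in control and 78.8 and 110 CPM in irradiated libraries at day 4. At day 7 the same gene was at 38.6 and 40.6 in control and 56.9 and 58.5 CPM in irradiated libraries. Slc27a4 rose on both days, by 1.48 ± 0.14 on the log2 scale at day 4 (adjusted p = 4.31e-05) and by 0.54 ± 0.14 at day 7 (adjusted p = 0.0434).

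The other long-chain synthetases moved the opposite way. Acsl4, which prefers arachidonic acid, was at 62.4 and 52.8 CPM in control and 32.3 and 27.4 CPM in irradiated libraries at day 4, and at 42.5 and 43.0 against 28.1 and 25.6 CPM at day 7. Acsl4 was the only gene of the list called lower on both days, by 1.93-fold at day 4 (log2 -0.95 ± 0.12, adjusted p = 0.000283) and 1.59-fold at day 7 (log2 -0.67 ± 0.13, adjusted p = 0.0126). Acsl3, found on the endoplasmic reticulum and lipid droplets, was at 141 and 131 CPM in control and 86.3 and 78.6 CPM in irradiated libraries at day 4, and at 135 and 131 against 107 and 115 CPM at day 7. The irradiated libraries were below the controls on both days, but only day 4 passed the test (log2 -0.72 ± 0.09, adjusted p = 0.000159, and -0.27 ± 0.09, adjusted p = 0.0807, at day 7). Acsl1 fell by 0.38 on the log2 scale at day 4 (adjusted p = 0.0053), and had -0.53 on the log2(TPM + 1) scale, where it was not called (adjusted p = 0.0627). Slc27a2, an enzyme for very long chains, had 0.40 (adjusted p = 0.0835).

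Deposited TPM values, which are scaled to gene length, give the share of each synthetase among the 4 Acsl genes. Acsl5 held 66.4% ± 3.36 (SD, n = 2) in control and 88.4% ± 5.21 in irradiated libraries at day 4, and 57.7% ± 4.32 against 70.7% ± 2.91 at day 7. Acsl3 held 20.2% ± 3.61 in control and 6.51% ± 3.23 in irradiated libraries at day 4. The share of Acsl4 was 3.49% ± 0.603 in control and 0.955% ± 0.431 in irradiated libraries on that day. With 2 libraries against 2, an exact permutation test cannot go below p = 0.333, so the shares carry no test. The 4 shares of a library are parts of the same total, so a larger share of Acsl5 lowers those of the others.

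**Figure D2:**
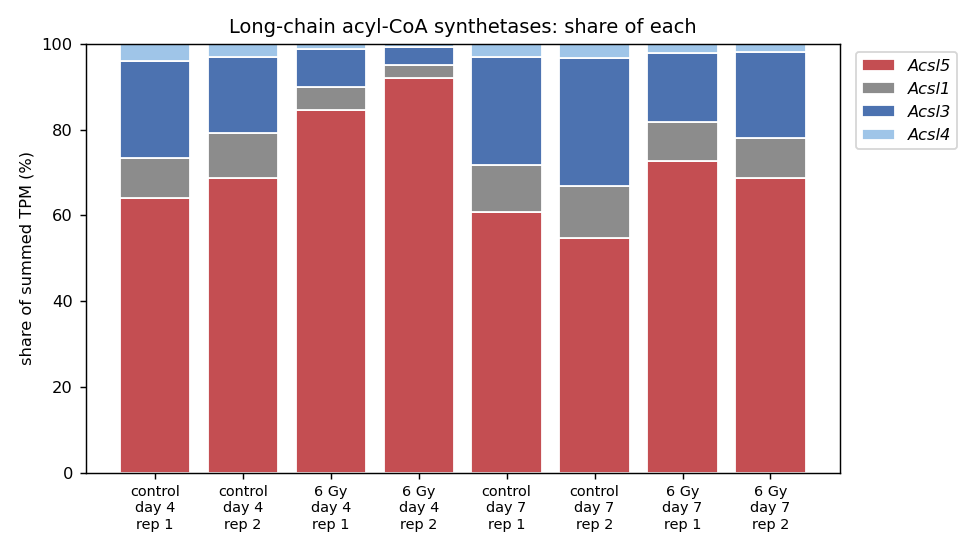
Share of each long-chain acyl-CoA synthetase (percent of the summed TPM of Acsl1, Acsl3, Acsl4 and Acsl5) in each library, as stacked bars. The Acsl5 bar reaches 84.7% and 92.1% in the irradiated day 4 libraries and 54.6% to 72.8% in the other 6.

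All 5 carnitine shuttle genes had positive fold changes at day 4, and 4 passed the test. The largest were in the transferases of short and medium chains. Crot, the peroxisomal carnitine octanoyltransferase, was at 47.6 and 43.8 CPM in control and 116 and 176 CPM in irradiated libraries at day 4, and at 52.4 and 47.9 against 58.8 and 58.6 CPM at day 7. Crat, the carnitine acetyltransferase, was at 16.9 and 19.99 CPM in control and 48.7 and 67.3 CPM in irradiated libraries at day 4, and at 22.0 and 19.3 against 28.0 and 30.7 CPM at day 7. Irradiated libraries were above the controls in both genes on both days, by far more at day 4. Crot rose 3.20-fold (log2 1.68 ± 0.18, adjusted p = 0.000239) and Crat 3.13-fold (log2 1.65 ± 0.16, adjusted p = 5.72e-05) at day 4. At day 7 the log2 fold change was 0.23 ± 0.18 for Crot (adjusted p = 0.478) and 0.51 ± 0.17 for Crat (adjusted p = 0.0952).

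The transferases of the mitochondrial membranes moved less. Cpt1a (ENSMUSG00000024900), the outer membrane enzyme that sets the rate of entry, was at 75.3 and 76.2 CPM in control and 126 and 116 CPM in irradiated libraries at day 4, and at 71.5 and 70.2 against 96.0 and 98.5 CPM at day 7. Cpt1a rose on both days, 1.60-fold at day 4 (log2 0.68 ± 0.08, adjusted p = 0.00015) and 1.37-fold at day 7 (log2 0.46 ± 0.08, adjusted p = 0.00909). Cpt2, its inner membrane counterpart, was at 43.4 and 51.2 CPM in control and 72.8 and 77.3 CPM in irradiated libraries at day 4, and at 47.8 and 49.7 against 62.4 and 57.3 CPM at day 7. Only its day 4 rise passed the test (log2 0.66 ± 0.10, adjusted p = 0.000829, and 0.30 ± 0.11, adjusted p = 0.111, at day 7). Slc25a20, the carnitine carrier of the inner membrane, had 0.45 ± 0.18 at day 4 (adjusted p = 0.0811). On the log2(TPM + 1) scale the day 4 values were smaller and neither Cpt1a (0.44, adjusted p = 0.15) nor Cpt2 (0.34, adjusted p = 0.156) was called. There the median of all genes shifted by -0.17, so values on that scale are read against this shift.

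In mitochondrial beta-oxidation, 4 of 10 genes rose at day 4 and the other 6 were not called. Acaa2, the thiolase of the last step, was at 108 and 116 CPM in control and 199 and 200 CPM in irradiated libraries at day 4, and at 119 and 119 against 168 and 161 CPM at day 7. It rose on both days, by 0.83 ± 0.08 on the log2 scale (adjusted p = 2.93e-05) and by 0.47 ± 0.08 (adjusted p = 0.00643). Acadl, the long-chain acyl-CoA dehydrogenase of the first step, was at 188 and 196 CPM in control and 248 and 329 CPM in irradiated libraries at day 4, and at 181 and 177 against 195 and 203 CPM at day 7. Its log2 fold change of 0.59 ± 0.12 at day 4 passed the test (adjusted p = 0.00336) and that of 0.16 ± 0.12 at day 7 did not (adjusted p = 0.444). Without irradiated day 4 replicate 2 the day 4 value of Acadl was 0.37 (adjusted p = 0.00281).

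Hadha and Hadhb encode the subunits of the trifunctional protein, which catalyses the middle and last steps for long chains. Their start sites lie 273 bases apart on opposite strands, and their promoter windows share 228 bases. The window of Hadhb is shown for that reason, with the shared bases in capitals, and was chosen after the positions were seen.
Hadhb, chr5:30155003-30155302, plus strand: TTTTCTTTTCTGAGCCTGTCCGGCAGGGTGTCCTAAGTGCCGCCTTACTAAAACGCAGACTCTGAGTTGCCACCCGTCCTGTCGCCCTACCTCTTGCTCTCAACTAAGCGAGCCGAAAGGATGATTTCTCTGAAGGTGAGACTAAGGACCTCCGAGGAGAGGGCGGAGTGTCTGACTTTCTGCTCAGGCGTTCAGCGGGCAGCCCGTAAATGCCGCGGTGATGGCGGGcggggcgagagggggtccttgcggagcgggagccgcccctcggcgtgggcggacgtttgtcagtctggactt
Hadha was at 264 and 273 CPM in control and 320 and 381 CPM in irradiated libraries at day 4, and at 258 and 257 against 302 and 306 CPM at day 7. Hadhb was at 147 and 152 CPM in control and 178 and 202 CPM in irradiated libraries at day 4, and at 135 and 133 against 173 and 164 CPM at day 7. Both genes were higher in each irradiated library than in each control of the same day, by similar amounts. At day 4 the log2 fold changes were 0.38 ± 0.09 for Hadha (adjusted p = 0.00818) and 0.34 ± 0.08 for Hadhb (adjusted p = 0.00844). At day 7 that of Hadhb was 0.33 ± 0.08 (adjusted p = 0.0375) and that of Hadha 0.24 ± 0.09 (adjusted p = 0.131). By TPM, Hadha held 48.5% to 51.8% of their sum as group means. In a fit of the day 4 groups alone neither was called (adjusted p = 0.0794 for Hadha and 0.0797 for Hadhb). On the log2(TPM + 1) scale the same held, with 0.15 for Hadha (adjusted p = 0.461) and 0.25 for Hadhb (adjusted p = 0.319), and also for Acadl, with 0.36 (adjusted p = 0.0922).

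The other 6 mitochondrial genes did not pass the test on either day. Acadvl, Acadm and Acads, the first-step dehydrogenases for very long, medium and short chains, had log2 fold changes of -0.10, 0.04 and 0.16 at day 4, with 95% intervals from -0.38 to 0.18, from -0.19 to 0.27 and from -0.23 to 0.56. Hadh, for short hydroxyacyl chains, had 0.22 with an interval from -0.08 to 0.52. Decr1 and Eci1, which prepare unsaturated chains, had 0.29 and -0.28. Of the 4 first-step dehydrogenases, Acadl was thus the only one called at day 4. Whether Acadl differed from the others was not tested.

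Electron transfer genes split as well. Etfdh, which hands the electrons to the respiratory chain, was at 84.6 and 75.3 CPM in control and 106 and 131 CPM in irradiated libraries at day 4, and at 87.6 and 86.7 against 92.5 and 90.5 CPM at day 7. It rose by 0.57 ± 0.11 on the log2 scale at day 4 (adjusted p = 0.00243), with 0.35 on the log2(TPM + 1) scale (adjusted p = 0.0951), and had 0.07 ± 0.11 at day 7 (adjusted p = 0.737). Etfa, a subunit of the electron transfer flavoprotein, was at 147 and 153 CPM in control and 121 and 133 CPM in irradiated libraries at day 4, and at 145 and 135 against 131 and 125 CPM at day 7. Irradiated libraries were lower on both days, but the fall at day 4 was small (log2 -0.24 ± 0.08, adjusted p = 0.0405). The call of Etfa was lost when any 1 of 7 libraries was left out, with adjusted p from 0.0511 to 0.134, and kept without irradiated day 4 replicate 2. It was also lost by DESeq2 (adjusted p = 0.112), on the log2(TPM + 1) scale (adjusted p = 0.0942) and in a fit of the day 4 groups alone. Etfb, the other subunit, had 0.22 ± 0.09 (adjusted p = 0.082).

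Among peroxisomal genes, 4 of 8 rose at day 4, and these 4 are the core enzymes after the first step. Acaa1b (ENSMUSG00000010651), a thiolase, was at 4.43 and 4.45 CPM in control and 13.7 and 30.3 CPM in irradiated libraries at day 4, and at 3.76 and 5.52 against 9.70 and 8.06 CPM at day 7. Its near copy Acaa1a (ENSMUSG00000036138) was at 29.8 and 28.1 CPM in control and 54.6 and 59.1 CPM in irradiated libraries at day 4, and at 36.4 and 34.9 against 49.5 and 54.3 CPM at day 7. In both genes each irradiated library was above each control of its day, and Acaa1b had the wider spread. Acaa1b rose by 2.30 ± 0.37 on the log2 scale at day 4 (adjusted p = 0.00195), or by 1.62 (adjusted p = 0.000602) without irradiated day 4 replicate 2, and had 0.93 ± 0.40 at day 7 (adjusted p = 0.19). Acaa1a rose by 0.97 ± 0.10 at day 4 (adjusted p = 7.81e-05) and 0.54 ± 0.10 at day 7 (adjusted p = 0.0129). By TPM, Acaa1b made up 22.9% and 39.3% of the pair in irradiated libraries at day 4 and 13.4% to 17.4% in the other 6. Their longest open reading frames are 96.55% identical, so how reads were shared between them is uncertain.

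Ehhadh and Hsd17b4 encode the bifunctional enzymes of the middle steps. Ehhadh was at 61.4 and 60.0 CPM in control and 102 and 171 CPM in irradiated libraries at day 4, and at 64.4 and 62.2 against 65.2 and 65.5 CPM at day 7. Hsd17b4 was at 86.2 and 98.4 CPM in control and 157 and 181 CPM in irradiated libraries at day 4, and at 83.8 and 88.8 against 122 and 115 CPM at day 7. At day 7 the libraries of Ehhadh lay close together in all groups, while those of Hsd17b4 stayed clearly apart. Ehhadh rose 2.25-fold at day 4 (log2 1.17 ± 0.21, adjusted p = 0.0049), or by 0.75 on the log2 scale (adjusted p = 5.1e-05) without irradiated day 4 replicate 2, and had 0.05 ± 0.22 at day 7 (adjusted p = 0.924). Hsd17b4 rose 1.83-fold at day 4 (log2 0.87 ± 0.10, adjusted p = 0.00011) and 1.37-fold at day 7 (log2 0.46 ± 0.10, adjusted p = 0.0213). Decr2, Eci2 and Ech1, auxiliary enzymes for unsaturated chains, and Pex11a, a peroxisome division factor, had 0.37, 0.22, -0.23 and -0.01 at day 4 and were not called.

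The other PPAR targets held the largest change in the list. Pdk4 (ENSMUSG00000019577), the kinase that switches off pyruvate dehydrogenase and so spares glucose, was at 0.426 and 2.38 CPM in control and 18.2 and 20.4 CPM in irradiated libraries at day 4, and at 2.36 and 1.38 against 5.51 and 4.81 CPM at day 7. All 4 irradiated libraries lay above all 4 controls, with day 4 above day 7. The rise at day 4 was 12.7-fold (log2 3.67 ± 0.49, adjusted p = 0.000852), resting on 44 counts in control and 356 in irradiated libraries. It was 3.01 on the log2 scale (adjusted p = 0.000206) without control day 4 replicate 1, 5.46 (adjusted p = 8.52e-05) without control day 4 replicate 2, and 2.18 (adjusted p = 0.00165) on the log2(TPM + 1) scale, which understates changes of low genes. At day 7 the log2 fold change was 1.48 ± 0.54 (adjusted p = 0.134).

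Angptl4, a secreted inhibitor of lipoprotein lipase, was at 9.46 and 16.4 CPM in control and 39.1 and 28.9 CPM in irradiated libraries at day 4, and at 11.0 and 11.5 against 19.4 and 19.1 CPM at day 7. Irradiated libraries were higher on both days, and the day 4 rise passed the test (log2 1.37 ± 0.24, adjusted p = 0.00216, and 0.78 ± 0.26, adjusted p = 0.0951, at day 7). Plin2, the lipid droplet coat, was at 44.2 and 45.8 CPM in control and 71.3 and 80.1 CPM in irradiated libraries at day 4, and at 64.8 and 62.4 against 57.8 and 65.9 CPM at day 7. The groups of Plin2 were apart at day 4 (log2 0.75 ± 0.10, adjusted p = 0.000333, or 0.41 with adjusted p = 0.15 on the log2(TPM + 1) scale) and overlapped at day 7 (log2 -0.04 ± 0.10, adjusted p = 0.837). Acot1, a cytosolic acyl-CoA thioesterase, was at 90.9 and 102 CPM in control and 52.9 and 60.2 CPM in irradiated libraries at day 4, and at 111 and 104 against 121 and 121 CPM at day 7. Acot1 fell 1.71-fold at day 4 (log2 -0.77 ± 0.10, adjusted p = 0.000213) while the other 3 targets rose, and had 0.17 ± 0.09 at day 7 (adjusted p = 0.294). Its reading frame is 95.48% identical to that of Acot2, which had a log2 fold change of -0.48 at day 4 (adjusted p = 0.0837), so reads shared between these genes are uncertain.

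**Figure D3:**
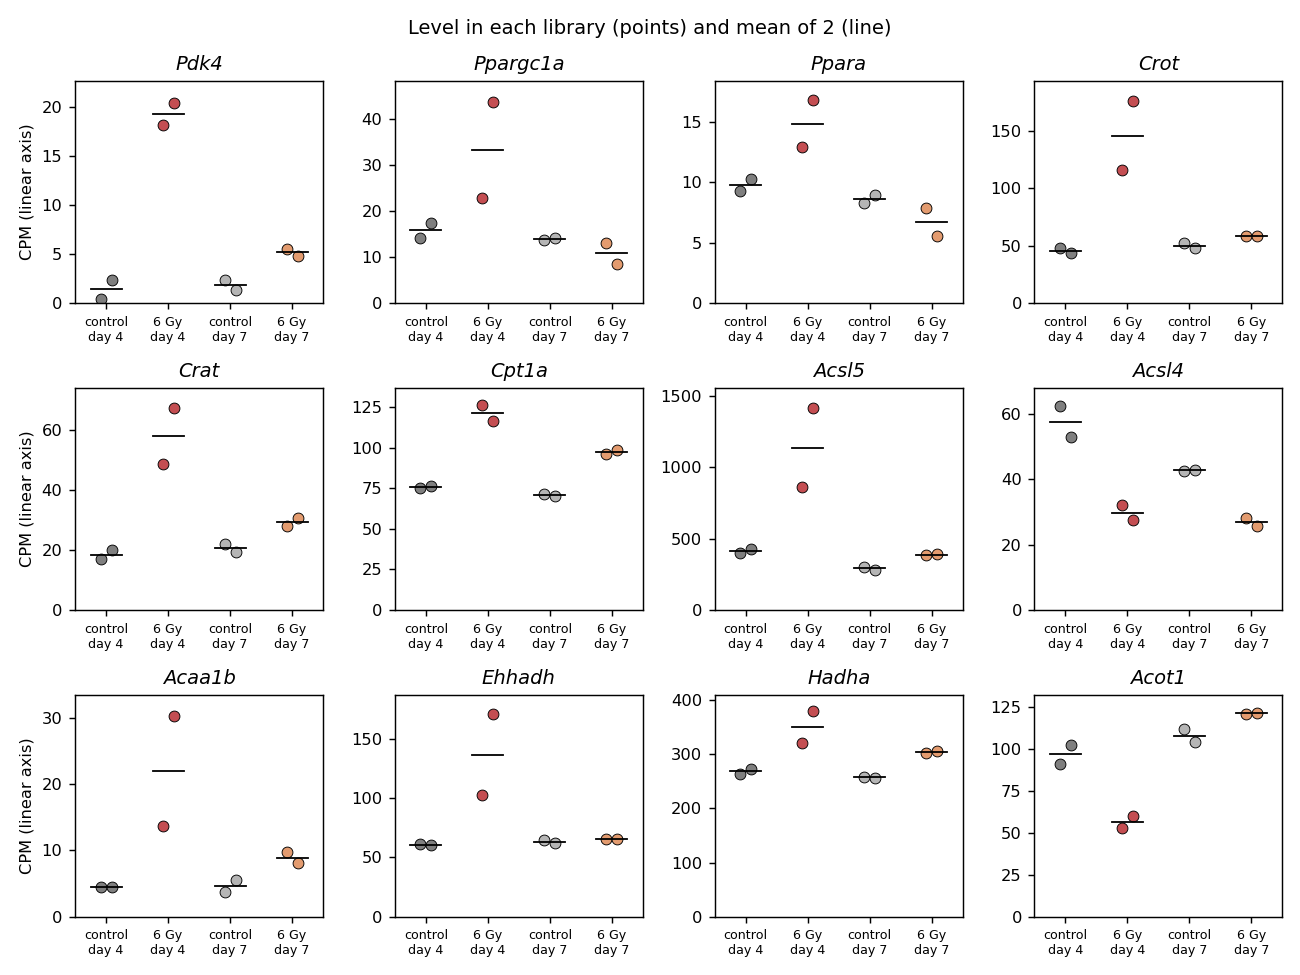
Level (CPM, linear axes starting at 0) of 12 of the genes in each library (points), with the mean of 2 (line), for control and irradiated (6 Gy) organoids at day 4 and day 7. Pdk4, Crot, Crat, Acsl5 and Ehhadh are highest in the irradiated day 4 libraries, and Acot1 is lowest there.

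At day 7, 6 genes were called higher, Cpt1a, Slc27a4, Acaa2, Hadhb, Acaa1a and Hsd17b4, and 1 was called lower, Acsl4. All 7 had been called in the same direction at day 4. Over all genes tested, 4.7% were called higher and 3.95% lower at day 7. The higher share of the list, 15.8%, lay above that background and the lower share, 2.63%, did not. The median log2 fold change was 0.23, and 28 of the 38 genes were positive. These calls rest on few libraries: leaving out any 1 of the 4 day 7 libraries ended all 7, with adjusted p from 0.0591 to 0.28, and cut the calls over all genes to between 0.484% and 0.903% higher and between 0.114% and 0.284% lower. Leaving out either irradiated day 4 library raised the higher calls from 6 to 12 and the lower calls from 1 to 3, while 8.82% of all genes were then higher and 7.86% to 7.89% lower. Slc27a4 was not called without control day 4 replicate 1 or 2 (adjusted p = 0.0586 and 0.0584) or by limma-voom (adjusted p = 0.0704), and Hadhb was not called by DESeq2 (adjusted p = 0.0546). On the log2(TPM + 1) scale Acaa1a alone of the 7 kept its call (0.81, adjusted p = 0.0357), and Cpt1a, for one, had 0.37 (adjusted p = 0.379). In a fit of the day 7 groups alone, 22 genes were called higher and 3 lower, where 17.7% of all genes were called higher and 16% lower.

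**Figure D4:**
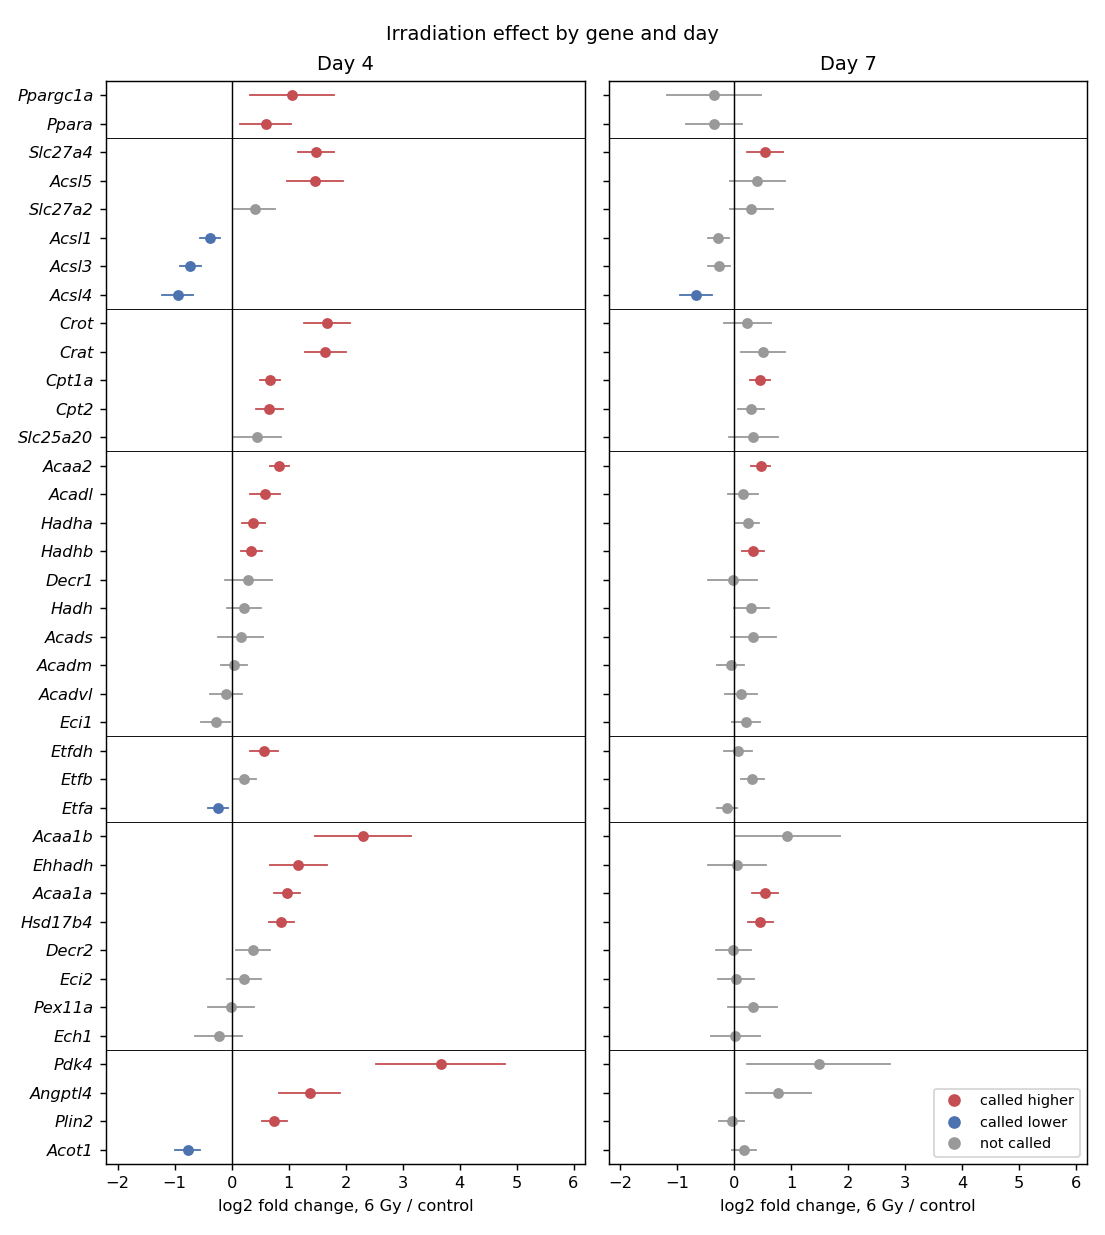
Log2 fold change of each gene, irradiated (6 Gy) over control, at day 4 (left) and day 7 (right), with 95% intervals, coloured by call. The values at day 4 run from -0.95 (Acsl4) to 3.67 (Pdk4), and those at day 7 from -0.67 (Acsl4) to 1.48 (Pdk4).

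The irradiation effect was set against itself between days as an interaction, day 7 less day 4. The difference was called lower for Crot, Crat, Slc27a4 and Plin2 and higher for Acot1 and Acsl3. Over all genes tested, 5.51% were called lower and 4.6% higher in this comparison, against 10.5% and 5.26% of the list. Ehhadh (-1.12, adjusted p = 0.0608), Acsl5 (-1.05, adjusted p = 0.0637), Ppara (-0.95, adjusted p = 0.07), Ppargc1a (-1.42, adjusted p = 0.104) and Pdk4 (-2.19, adjusted p = 0.107) had differences of similar or larger size that did not pass. Acaa1b, at -1.37, did not pass either. So of the 14 genes called higher at day 4 and not at day 7, 3 were shown to differ between the days, Crot, Crat and Plin2. Acot1 alone kept its call whichever library was left out. The number of lower calls rose from 4 to 15 without irradiated day 4 replicate 1 and to 7 without replicate 2, where 10.4% and 6.44% of all genes were called lower. It was 0 to 1 without any 1 of the day 7 libraries, where 0.882% to 1.23% of all genes were.

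Between day 4 and day 7, control organoids changed little in this list and irradiated organoids changed more. In control organoids 1 gene, Plin2, was called higher at day 7 (log2 0.50 ± 0.10, adjusted p = 0.0325). This call was lost without any 1 of 6 libraries, all but those of irradiated day 4 (adjusted p from 0.0583 to 0.275), and on the log2(TPM + 1) scale (adjusted p = 0.566). In the same comparison 0 were called lower by edgeR (5 at an unadjusted p under 0.05, and 0 adjusted by DESeq2 and by limma-voom). Over all genes tested, 1.25% were higher and 1.46% lower. In irradiated organoids 18 genes were called lower at day 7 than at day 4 and 3 were called higher. The background there was 18.3% lower and 14.7% higher, against 47.4% and 7.89% of the list. The 18 included Ppargc1a (log2 -1.61), Ppara (-1.14), Acsl5 (-1.55), Crot (-1.31), Ehhadh (-1.06) and Pdk4 (-1.89), and the 3 that rose were Acot1 (1.10), Eci1 (0.51) and Acsl3 (0.42). Without irradiated day 7 replicate 1 there were 6 lower calls and without replicate 2 there were 5, where 7.49% and 7.54% of all genes were lower. The log2(TPM + 1) scale moved the median over all genes by 0.30 in this comparison, and 6 genes were lower there and 5 higher, against 5.28% and 23.3% of all genes. This comparison shares its irradiated day 4 libraries with the day 4 comparison.

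The oxidation genes moved beside large changes in cell type markers. The 17 enterocyte markers were all called higher at day 4, at a median of 3.34 on the log2 scale, and summed to 5334 and 4877 CPM in control and 16317 and 25858 CPM in irradiated libraries. At day 7, 7 of 17 were called higher, with a median of 1.26 and sums of 4663 and 4582 against 7408 and 7402 CPM. The 10 mitosis genes summed to 2191 and 2092 CPM in control and 1192 and 976 CPM in irradiated libraries at day 4, and to 1941 and 1928 against 1737 and 1727 CPM at day 7. The 4 Paneth cell markers were all called higher at day 4 (median 2.69), 5 of 7 crypt base stem cell markers were called lower (median -0.53), and all 4 tuft cell markers were called lower (median -1.97). Of 4 goblet markers 2 were higher and 1 lower, and of 4 enteroendocrine markers 1 was higher. At day 7, 0 Paneth (median -0.13) and 0 tuft markers (median -0.75) were called, and 4 of 7 crypt base markers were lower (median -0.37). Over all genes, 20% were higher and 16.5% lower at day 4, and 4.7% and 3.95% at day 7. The 6 general epithelial markers moved too, with 4 called higher and 1 lower at day 4 (median 1.09) and 3 higher at day 7 (median 0.46). Of the 3 immune markers tested, 2 were called higher at day 4, and all 6 had summed levels of 4.18 and 6.03 CPM in control and 8.60 and 10.1 CPM in irradiated libraries. The part of these markers in the rise of the oxidation genes was not tested.

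**Figure D5:**
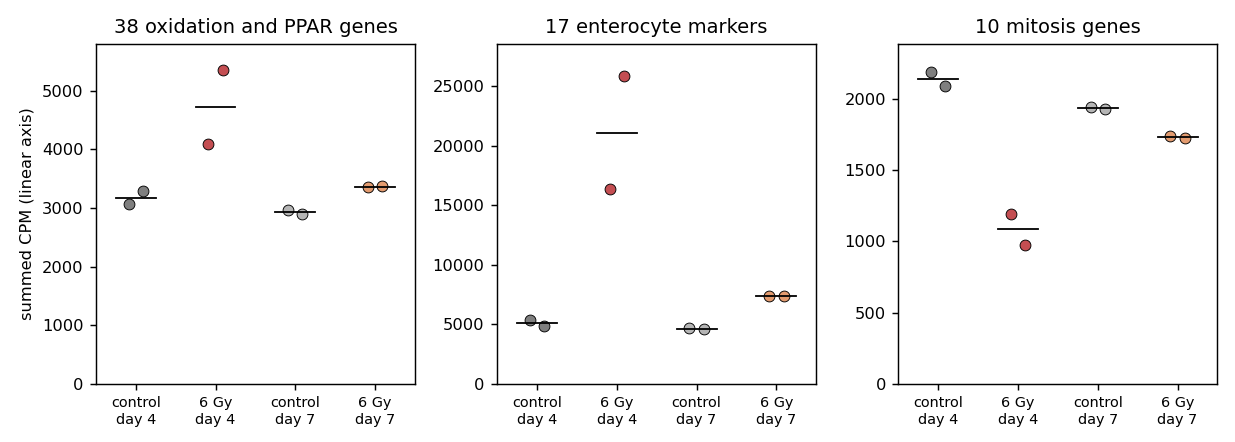
Summed CPM (linear axes starting at 0) of the 38 genes, of 17 enterocyte markers and of 10 mitosis genes in each library (points), with the mean of 2 (line). In the irradiated day 4 libraries the first 2 sums are highest, at 4100 and 5350 and at 16317 and 25858 CPM, and the mitosis sum is lowest. By TPM, the 38 genes summed to 3117 and 3219 in irradiated day 4 and 3159 and 3177 in irradiated day 7 libraries. TPM was not scaled between libraries, and between these groups the median over all genes moved by 0.30 on the log2(TPM + 1) scale.

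Genes of the same pathways outside the list gave a mixed picture at day 4. Of 29 other oxidation genes tested, 12 were called higher and 3 lower (median log2 fold change 0.34), 41.4% and 10.3% against 20% and 16.5% over all genes. Acad11, an acyl-CoA dehydrogenase, rose by 2.16 at day 4 (adjusted p = 3.52e-06) and 0.57 at day 7 (adjusted p = 0.0316). Pecr, a peroxisomal enoyl-CoA reductase, fell by 1.03 at day 4 (adjusted p = 0.00112), and Hsd17b10, a mitochondrial hydroxyacyl-CoA dehydrogenase, fell by 0.34 (adjusted p = 0.0143). At day 7, 2 were called higher and 2 lower, 6.90% each and near the 4.7% and 3.95% over all genes, with Acadsb at -0.46 (adjusted p = 0.0355). Cpt1b, the muscle-type partner of Cpt1a, had 38 counts in control and 0 in irradiated libraries at day 7, at least 11.4-fold lower with a floor of 3 counts over the group, which covers counting error only. It was singled out after its values were seen.

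Of 13 further PPAR target genes tested of 21 listed, 10 were called higher at day 4 and 2 lower (median 0.87), 76.9% and 15.4% against 20% and 16.5% over all genes. At day 7, 4 were higher and 1 lower, 30.8% and 7.69% against 4.7% and 3.95%. Cd36, a fatty acid receptor and transporter, rose by 3.73 ± 0.42 at day 4 (adjusted p = 0.000277) and 1.72 ± 0.45 at day 7 (adjusted p = 0.049). Fabp2, the intestinal fatty acid binding protein, rose by 2.57 ± 0.23 at day 4 (adjusted p = 0.000309), and Cidec, a lipid droplet protein, rose by 0.83 at day 7 (adjusted p = 0.0468). Lpin1, a phosphatidate phosphatase, fell by 0.62 at day 4 (adjusted p = 0.00468) and 0.90 at day 7 (adjusted p = 0.00574). Cyp4a10, a fatty acid omega-hydroxylase, had 7 counts in control and 51 in irradiated libraries at day 4, a ratio of 11.1 with a 95% counting interval from 5.01 to 29.0, and 4 against 0 counts at day 7. Cyp4a14 was at 0 counts in all 8 libraries.

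Among 14 receptors, partners and coregulators, 3 were called higher and 6 lower at day 4 (median -0.20). The higher share, 21.4%, was near the 20% over all genes, and the lower share, 42.9%, was above the 16.5% over all genes. Ppard, the receptor PPARδ, rose by 0.92 ± 0.16 (adjusted p = 0.0016), and Pparg had -0.20 ± 0.12 (adjusted p = 0.226). At day 7 Ppard had 0.24 (adjusted p = 0.415) and Pparg 0.24 (adjusted p = 0.251). Creb3l3, a transcription factor that works with PPARα, was at 8.18 and 6.28 CPM in control and 79.0 and 119 CPM in irradiated libraries at day 4, and at 12.6 and 14.9 against 39.3 and 44.9 CPM at day 7. Creb3l3 was the only gene of these 14 called at day 7 (log2 3.79 ± 0.23 at day 4, adjusted p = 1.16e-05, and 1.61 ± 0.22 at day 7, adjusted p = 0.00537). The coactivators Ncoa1 and Pprc1 fell by 0.66 and 0.57 at day 4 (adjusted p = 0.00288 and 0.00345).

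Ketone bodies are made from the product of beta-oxidation, and of 5 ketone body genes 1 was called higher and 1 lower at day 4 (median 0.03), 20% each, which is near the background. Acat1, a mitochondrial thiolase, fell by 0.58 at day 4 (adjusted p = 0.000415), while Oxct1, the enzyme that uses ketone bodies, rose by 0.67 (adjusted p = 0.00186). Bdh1, a ketone body dehydrogenase, rose by 0.32 at day 7 (adjusted p = 0.0472). Peroxisome biogenesis genes had a median of 0.07 at day 4, and of 16 tested 2 were called higher, Pex3 (0.53, adjusted p = 0.00659) and Pex19 (0.31, adjusted p = 0.0306), and 1 lower. These shares, 12.5% and 6.25%, lay below those over all genes, 20% and 16.5%.

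The balance of pyruvate dehydrogenase kinases shifted with irradiation. Pdk1, which held 78.7% ± 0.337 of the TPM of the 4 kinases in control and 54.5% ± 6.06 in irradiated libraries at day 4, fell by 1.54 ± 0.22 on the log2 scale (adjusted p = 0.00218) and by 1.3 ± 0.22 at day 7 (adjusted p = 0.0191). Its CPM was 282 and 287 in control and 71.9 and 123 in irradiated libraries at day 4. Pdk4 held 0.370% ± 0.405 of the 4 kinases in control and 7.90% ± 0.781 in irradiated libraries at day 4, and 0.557% ± 0.0968 against 3.08% ± 0.0273 at day 7. Despite its rise Pdk4 thus stayed a minor kinase by RNA level. Pdk2 and Pdk3 held the rest of the TPM, so the share that Pdk1 lost did not go to Pdk4 alone. Of the 7 genes of the complex, its kinases and its phosphatases other than Pdk4, 4 were called lower at day 4 (57.1%, against 16.5% over all genes), with Pdp2 at -0.59 (adjusted p = 0.00195).

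By length-scaled level the order of the list shifted with irradiation at day 4. Mean TPM in control libraries of day 4 was highest for Acsl5 (301), Etfa (225), Hadh (205) and Acot1 (177) and lowest for Pdk4 (0.750). In irradiated libraries of day 4, Acsl5 stood at 679 TPM, Hadhb at 206 and Hadh at 203, while Etfa was at 171 and Acot1 at 89.8 TPM. Acot1 thus moved from rank 4 to rank 11 of 38, and Crot from rank 27 to rank 17. At day 7, Acot1 was at rank 3 in both groups and Crot at rank 26 in both.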

How the data were processed

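The authors deposited, per the file headers, 2 gene tables with 1 column per library, of which one holds expected counts and the other TPM. The submitters' processing notes name RSEM 1.3.3 and STAR 2.7.3a beside Trim Galore and FastQC. They also name 2 builds, mm10 and GRCm39, without a role. Libraries were poly-A selected with a directional kit, per the labels' protocols. Neither how strand was handled in counting nor the annotation used is stated, and reads of overlapping genes may be mixed. Exons of 13 of the 38 genes overlap another gene in GENCODE M21, 11 of them on the opposite strand. Expected counts share reads between similar genes and are whole in all 8 libraries for 21 of the 38 genes (within 0.001).

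Symbols were matched by Ensembl ID to GENCODE M21. Expected counts were rounded, which changed 11.4% of values, filtered with filterByExpr (minimum count 10, minimum total 15) and fitted in edgeR 4.0.16 (R 4.3.3; robust quasi-likelihood, TMM scaling) with 1 mean per group (4 groups, 8 libraries, leaving 4 residual degrees of freedom). P-values are two-sided and Benjamini-Hochberg adjusted over the 14063 genes tested, and a gene was called under 0.05. The SE of a log2 fold change is its size over the square root of F, and intervals are 95%. Alternatives used DESeq2 1.42.0 and limma 3.58.1 (voom, and limma-trend on log2(TPM + 1) for genes of at least 1 TPM). Scripts were tested on simulated data. No deposited column was left unmapped. TPM keeps no depth, and CPM of 1 count was 0.0610 to 0.120.

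The genes and lists were chosen with earlier results of these data known. Values are given for each library for Ppara, Ppargc1a, Cpt1a, Pdk4, Acaa1a and Acaa1b and for up to 4 called genes of each role by size of the irradiation effect. Outside the list, Ppard, Pparg, Cyp4a10 and Cyp4a14 are named whatever their values, with up to 2 called genes per list, direction and comparison at a mean of at least 5 CPM. Some genes that this rule names are not reported here. Summed levels not given above were 784 to 2094 CPM for goblet markers and 508 to 2575 CPM for enteroendocrine markers. Identity was computed between the longest reading frames of protein-coding transcripts, and proteins were not used here.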

Additional observations from a re-analysis of the deposited data

Results flagged for a closer look

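For 6 of the 38 genes the irradiation effect differed between the days (interaction in edgeR, day 7 less day 4, on the log2 scale, adjusted over all genes tested). In Acot1 the difference was 0.94 (adjusted p = 0.00406), from -0.77 at day 4 to 0.17 at day 7. In Acsl3 it was 0.46 (adjusted p = 0.0392), from -0.72 to -0.27. For Plin2 it was -0.79 (adjusted p = 0.00997), from 0.75 to -0.04. Crot differed by -1.45 (adjusted p = 0.0128), from 1.68 to 0.23, and Crat by -1.14 (adjusted p = 0.0169), from 1.65 to 0.51. Slc27a4 differed by -0.94 (adjusted p = 0.0181), from 1.48 to 0.54. Acot1 kept its call without any single library, with adjusted p from 0.000462 to 0.0373. Leaving out each of the 8 libraries in turn kept the call of Plin2 5 times, of Crat 4 times and of Crot, Slc27a4 and Acsl3 3 times each. Without control day 7 replicate 1, for instance, Plin2 had -0.76 (adjusted p = 0.0688), Crot -1.38 (adjusted p = 0.0713), Crat -1.04 (adjusted p = 0.0941), Slc27a4 -0.97 (adjusted p = 0.0803) and Acsl3 0.49 (adjusted p = 0.131).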

How the results depend on the processing

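At day 4, 22 of the 25 calls were kept whichever library was left out (all but Ppara, Ppargc1a and Etfa), with 18 to 25 genes higher and 4 to 6 lower. A fit of the day 4 groups alone kept 20 of the 25 calls and lost Ppara, Ppargc1a, Etfa, Hadha and Hadhb. In that fit 13% of all genes were called higher and 9.44% lower. On the log2(TPM + 1) scale 11 were higher and 3 lower, against 7.67% and 12% of all genes. There 14 of the 25 calls were kept, and no called gene changed sign. The list's median was then 0.21 against -0.17 for all genes. At day 7 higher calls were 16 without a filter, 2 by log2(TPM + 1) and 22 in a fit of the groups compared alone. Of all genes, 4.51%, 2.2% and 17.7% were then higher, in that order. Lower calls were 2 with at least 5 CPM in 2 libraries, 0 by log2(TPM + 1) and 3 with the groups alone. Of all genes, 5.91%, 0.493% and 16% were then lower. For the interaction, higher calls were 1 by DESeq2 and 1 by log2(TPM + 1), and 1 to 2 with 1 library left out. Lower calls of the interaction were 9 without a filter, 8 with at least 5 CPM in 2 libraries, 8 by DESeq2 and 1 by log2(TPM + 1), and 0 to 15 with 1 library left out. Its list median was -0.27, and 0.15 by log2(TPM + 1), where all genes had 0.26. Between days in control, 0 genes were higher by log2(TPM + 1), where 0.243% of all genes were. Lower were 5 without a filter and 2 with the groups alone, against 2.46% and 2.63% of all genes. Between days in irradiated organoids, log2(TPM + 1) gave 5 higher and 6 lower, against 23.3% and 5.28% of all genes. The groups alone gave 10 lower, where 14.1% of all genes were. In irradiated organoids 4 called falls changed sign by log2(TPM + 1): Cpt1a 0.024 (adjusted p = 0.943), Acaa2 0.12 (adjusted p = 0.588), Etfdh 0.033 (adjusted p = 0.876) and Plin2 0.042 (adjusted p = 0.888). On that scale the list median was 0.06, against 0.30 for all genes, and all 4 values lay below 0.30. Less the median of all genes, the list stood at -0.236 on that scale and at -0.243 in the main fit. The cause of the differences between settings was not tested. Where a group was left with 1 library, that library was assumed to vary like the other groups.

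Replicate numbers did not pair the libraries (correlations of deviations from -0.0355 to 0.0581), and a fit with the replicate number as a block kept all called genes of each comparison, 25, 7, 6, 1 and 21. At day 4 it added Slc27a2 (0.40, adjusted p = 0.0374) and between days in irradiated organoids Decr1 (-0.48, adjusted p = 0.0487). Depth limits what can be said of Cyp4a10, Cyp4a14, Cpt1b and the control level of Pdk4, which rest on few counts.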
